A study of Mus musculus with 4 samples.

Results

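Macrophages and related myeloid cells of the skin were followed here through 38 genes, chosen by name as genes of macrophages and myeloid cells, in dorsal skin of wild type mice and of bitransgenic mice that overexpressed deltaNp63alpha. Every probe set whose only gene symbol in the platform annotation was 1 of these 38 was taken, which gave 70 probe sets for 38 of the 18193 genes that the array names. Each group had 2 arrays (n = 2 throughout), 1 per animal, from mice at postnatal day 16. DeltaNp63alpha is the isoform of the transcription factor p63 that prevails in basal keratinocytes. The labels name the overexpressed isoform but give no promoter, inducing treatment, strain, litter or sex, and they call the control animals wild type. The RNA came from whole dorsal skin, so fewer cells of a type and less RNA per cell cannot be told apart in any value below.

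Macrophages live in the dermis, around blood vessels and hair follicles, where they engulf debris and microbes, present antigen and release cytokines. Their survival depends on the receptor Csf1r, which binds the growth factors Csf1 and Il34, and their identity on the transcription factor PU.1, the product of Spi1. They sense their surroundings through Fc receptors, lectins, Toll-like receptors and complement, and many of these receptors signal through the small adaptors Fcer1g and Tyrobp. Neutrophils, monocytes and dendritic cells share a large part of this set, so most of these genes mark myeloid cells rather than macrophages alone. In macrophages PU.1 binds purine-rich DNA that often holds the letters GAGGAA, known as the PU box.

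The stretch of 250 bases before the start of transcription is shown for 5 members: 4 of the members that differed most between genotypes and hold the PU box, and 1 that differed as much and lacks it. The sequences are RefSeq's for build GRCm38.p6, read 5′ to 3′ along the gene, and capitals mark the letters GAGGAA or, on the other strand, TTCCTC. Clec4d lies at chr6:123261857-123262106 on the plus strand, its neighbour Clec4e at chr6:123289872-123290121 on the minus strand, and Clec7a at chr6:129472780-129473029 on the minus strand. The Itgam stretch is chr7:128062390-128062639 on the plus strand, and that of Fcgr2b, which holds no match, is chr1:170976072-170976321 on the minus strand.
Clec4d: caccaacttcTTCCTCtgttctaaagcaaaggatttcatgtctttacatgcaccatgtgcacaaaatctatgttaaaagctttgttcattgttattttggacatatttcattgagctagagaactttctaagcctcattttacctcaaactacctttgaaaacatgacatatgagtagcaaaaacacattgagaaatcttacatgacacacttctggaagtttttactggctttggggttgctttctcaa
Clec4e: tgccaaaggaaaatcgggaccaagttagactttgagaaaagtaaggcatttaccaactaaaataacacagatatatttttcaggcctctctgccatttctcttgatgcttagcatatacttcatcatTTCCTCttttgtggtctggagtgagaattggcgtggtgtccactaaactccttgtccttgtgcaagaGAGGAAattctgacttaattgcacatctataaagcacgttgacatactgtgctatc
Clec7a: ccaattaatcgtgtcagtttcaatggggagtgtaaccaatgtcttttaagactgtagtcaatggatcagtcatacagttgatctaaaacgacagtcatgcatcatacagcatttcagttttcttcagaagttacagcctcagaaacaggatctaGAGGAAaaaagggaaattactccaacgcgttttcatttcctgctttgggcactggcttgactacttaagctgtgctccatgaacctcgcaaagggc
Itgam: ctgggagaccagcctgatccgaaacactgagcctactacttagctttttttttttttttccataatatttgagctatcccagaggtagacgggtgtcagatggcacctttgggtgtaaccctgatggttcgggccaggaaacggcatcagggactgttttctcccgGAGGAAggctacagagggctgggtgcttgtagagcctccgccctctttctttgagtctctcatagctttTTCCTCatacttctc
Fcgr2b: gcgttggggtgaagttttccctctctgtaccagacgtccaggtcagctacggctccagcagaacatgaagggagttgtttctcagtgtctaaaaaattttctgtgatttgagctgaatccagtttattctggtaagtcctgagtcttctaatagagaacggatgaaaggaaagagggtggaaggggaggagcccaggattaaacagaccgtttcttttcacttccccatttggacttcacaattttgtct

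The promoter table held a start site for 29 of the 38 members, and 17 of these 29 (58.6%) had the 6 letters GAGGAA on either strand within the 250 bases of at least 1 start site. Over all 27025 genes of the table the share was 25.9%. By single windows, 19 of 34 member windows and 23.3% of all 32851 windows held the letters. In Clec4d the only match began at position -240 from the start site. Clec4e held matches at positions -123 and -56, Itgam at -84 and -15, and Clec7a at -96. The median log2 difference between genotypes was 0.98 for the 17 members with the letters and 0.82 for the 12 without. The 17 include Clec4e and Marco, which were too dim for the fit of genes described below. Their values came from a separate fit of all probe sets. A match is a description of the letters in this window and not evidence of a bound site.

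Array signals had been scaled to a common trimmed mean of 500.0, and the median signal lay between 97.9 and 113.1. As a check of the labels, 2 of the 4 probe sets of Trp63, the gene of the transgene, averaged 522 and 317 in wild type but 12786 and 7282 in bitransgenic skin (limma over 45037 probe sets, adjusted p = 0.0613 and 0.0591), while the other two had log2 differences of -0.037 and -0.33. Across arrays, wild type replicate 2 correlated with bitransgenic replicate 2 (r = 0.920 over probe sets) as closely as with the other wild type array (0.918). The Y-linked gene Eif2s3y was bright in wild type replicate 1 and bitransgenic replicate 2 only, so each genotype had 1 array of each kind. Markers of the labelled tissue were bright: summed signals of 10 epidermal keratinocyte markers lay between 135844 and 189842 on the 4 arrays, and those of 9 dermal fibroblast markers between 65484 and 146552.

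Of the 38 members, 36 passed the filter on dim probe sets, and 34 of these 36 had a higher mean on the log2 scale in bitransgenic skin, against 50.5% of all genes tested. Only Clec4d rose past the threshold of 0.05 on the adjusted p in limma's fit of 13070 genes, and 0 members fell. By comparison, 0.75% of all genes tested rose and 1.58% fell. At an unadjusted p under 0.05 there were 20 members higher and 0 lower, against 6.91% and 9.76% of all genes. Differences of 2-fold or more upward were seen for 17 members and 4.56% of all genes. The median log2 difference over the 36 members was 0.97, or 1.95-fold, and over all genes it was 0.0053. In 25 of the 36 members both bitransgenic arrays lay above both wild type arrays, and in 2 both lay below, against 23.9% and 24.9% of all genes. With no filter all 38 members could be tested, of which 35 had positive differences and 21 were higher at an unadjusted p under 0.05, against 6.2% of 18193 genes, and limma called 0. The rule names myeloid genes and uses no measured value, but the list was drawn up with earlier results of these data known, and many members are expressed by the same cells, so these counts do not come from independent genes.

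**Figure D1:**
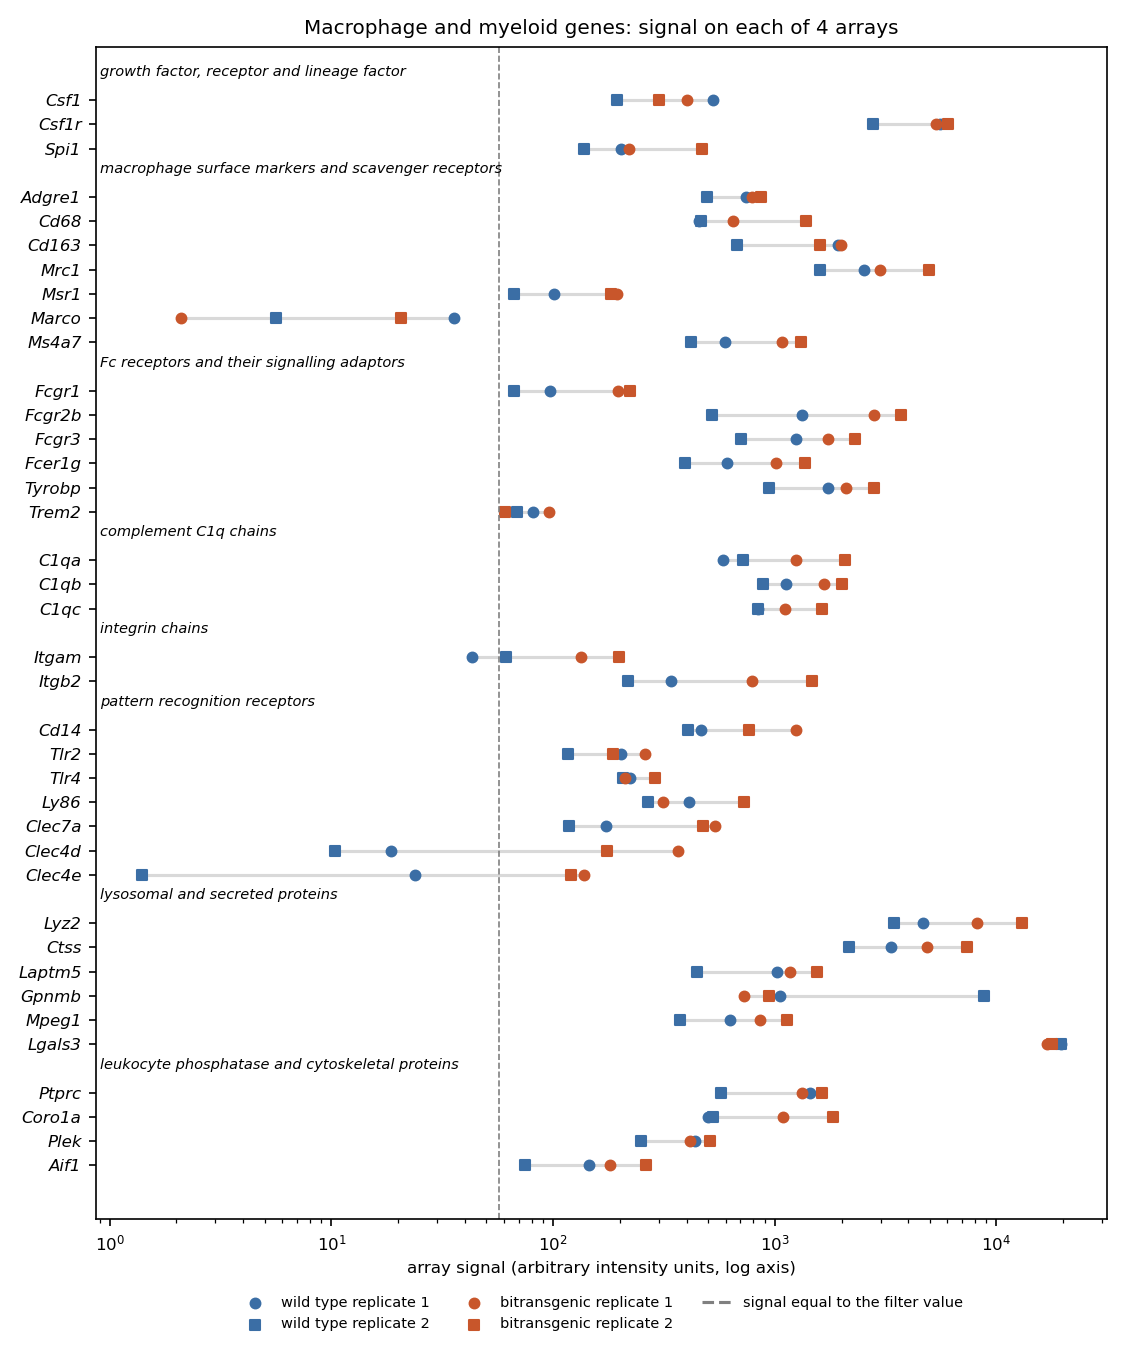
Signal of each of the 38 members on each of the 4 arrays, on a log axis in arbitrary intensity units, grouped by role; circles are replicate 1 and squares replicate 2, blue is wild type and orange bitransgenic, and the dashed line is the filter's signal of 57.0. Wild type replicate 2 is the lowest array for 29 of the 36 members past the filter, Gpnmb is high on that array alone, and Marco lies left of the line on every array.

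**Figure D2:**
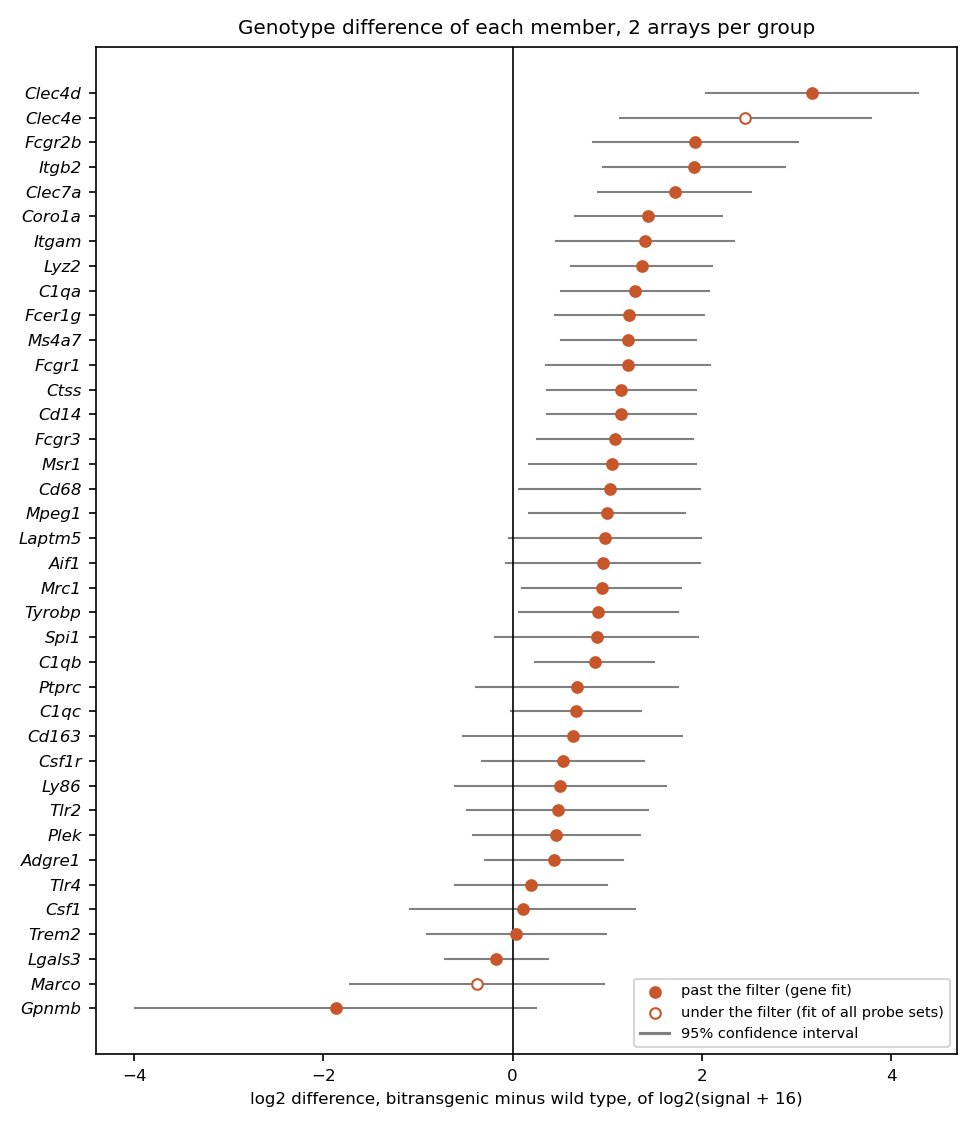
Log2 difference between bitransgenic and wild type skin of each member with its 95% confidence interval, on the log2(signal + 16) scale; filled points passed the filter and the 2 open points, Clec4e and Marco, did not. Clec4d stands highest at 3.16 and Gpnmb lowest at -1.87, with the widest interval.

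The C-type lectin receptors Clec4d, Clec4e and Clec7a recognise fungal and mycobacterial surface molecules. Clec4d, also called MCL, had wild type signals of 18.5 (replicate 1) and 10.4 (replicate 2), against bitransgenic signals of 366 and 176, and every pair of signals below follows the same order of replicates. Both bitransgenic arrays were thus far above both wild type arrays, whose signals lay under the filter's signal of 57.0. The gene rose 8.97-fold, by 3.16 ± 0.47 (SE) on the log2 scale (limma, adjusted p = 0.0281). It passed the filter only through its bitransgenic arrays, and the size of such a rise depends on the pseudocount of 16. A fit with 1 array left out leaves 1 array in that group, and takes the spread from the 2 arrays of the other group. Without bitransgenic replicate 1 the difference was 2.67 and missed the threshold (adjusted p = 0.111), and it also missed it with no filter on dim probe sets (0.0509). The identifier of its only probe set ends in _s_at, which marks probes that can also match related transcripts.

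Clec4e, or Mincle, which pairs with Fcer1g, did not pass the filter. Its brighter probe set read 23.9 and 1.4 on the wild type arrays against 138 and 121 on the bitransgenic arrays. The 2 genotypes did not overlap, and in the fit of all probe sets the log2 difference was 2.46 ± 0.55 (adjusted p = 0.214). A dimmer probe set of the gene read 28.2, 21.5, 74.9 and 30.1 on the same arrays (0.67, adjusted p = 0.75). Clec7a, or Dectin-1, the receptor for beta-glucan, read 173 and 118 on the wild type arrays against 538 and 473 on the bitransgenic arrays. Here the spread within each genotype was small beside the distance between them (log2 difference 1.71 ± 0.34, adjusted p = 0.0616). It passed the threshold under quantile normalization (0.0486), with equal array medians (0.0466) and without wild type replicate 1 (0.0283). Against this stood values of 0.338 and 0.231 when bitransgenic replicate 1 or 2 was left out, and 0.0983 with no filter.

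On the RefSeq map of GRCm38.p6, Clec4n, Clec4d and Clec4e are consecutive protein-coding genes of chromosome 6, at the end of a run of C-type lectin genes. Clec4n, or Dectin-2, is no member but belongs to the list of other macrophage and monocyte genes. Of its 2 probe sets past the filter the brighter stood for the gene, and that identifier, as for Clec4d, ends in _s_at. Clec4n read 213 and 173 on the wild type arrays against 946 and 1199 on the bitransgenic arrays, and rose 5.20-fold (log2 difference 2.38 ± 0.30, adjusted p = 0.0179). Leaving out bitransgenic replicate 1 or 2 raised its adjusted p to 0.0876 or 0.113. Of the rest of this run, a set put together after the values were seen, Clec4a2 (1.52, adjusted p = 0.206), Clec4a3 (1.05, 0.246) and Clec4b1 (0.66, 0.665) had positive differences that did not pass.

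The other pattern recognition receptors were closer between genotypes. Cd14, the co-receptor that hands lipopolysaccharide to Tlr4, read 464 and 405 on the wild type arrays against 1249 and 768 on the bitransgenic arrays. Its arrays did not overlap (log2 difference 1.15 ± 0.33, adjusted p = 0.143). Tlr4 itself read 222 and 207 against 211 and 289, with overlap and a log2 difference of 0.19 (95% interval -0.61 to 0.99). A further Tlr4 probe set past the filter went the other way, at 254 and 164 in wild type against 119 and 104 in bitransgenic skin (-0.79, adjusted p = 0.626). Tlr4 therefore had no direction that both probe sets shared. Tlr2, which recognises bacterial lipopeptides, had overlapping arrays and a log2 difference of 0.48 (adjusted p = 0.624). Ly86, or MD-1, the partner of the Toll-like receptor relative Cd180, also overlapped, with a log2 difference of 0.50 (0.66).

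Fc receptors bind antibody on microbes and immune complexes. Fcgr2b, the inhibitory Fc receptor, read 1329 and 521 on the wild type arrays against 2799 and 3728 on the bitransgenic arrays. The bitransgenic arrays lay well above, although the wild type arrays differed from each other by more than 2-fold. The difference was 3.82-fold (log2 1.93 ± 0.45, adjusted p = 0.0934), and leaving out 1 array moved both its size and its adjusted p. It was 6.04-fold (0.00532) with wild type replicate 1 left out and 2.41-fold (0.0494) with wild type replicate 2 left out, but the adjusted p was 0.226 and 0.292 with bitransgenic replicate 1 or 2 left out. All 4 Fcgr2b probe sets past the filter were higher in bitransgenic skin, with log2 differences of 1.39, 1.93, 2.27 and 2.18 and adjusted p values between 0.109 and 0.279 in the fit of all probe sets. The dim probe set, with signals of 10.2 or less on every array, gave -0.023. Identifiers of 2 of these 5 end in _s_at or _x_at, so close relatives such as Fcgr3 may contribute to them.

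The activating receptors and the adaptors went the same way by smaller amounts. Fcgr3 read 1241 and 702 on the wild type arrays against 1733 and 2292 on the bitransgenic arrays (log2 difference 1.08 ± 0.34, adjusted p = 0.179). Fcgr1, the high-affinity receptor, read 97.3 and 66.3 against 196 and 223 (1.22 ± 0.36, 0.157). A further Fcgr1 probe set past the filter read 70.3 and 38.2 against 108 and 86.4. Its difference in the fit of all probe sets was smaller (0.72, adjusted p = 0.719). Fcer1g, the adaptor chain that these receptors need, read 612 and 393 against 1011 and 1362 (1.23 ± 0.33, 0.126). In the probe sets that stood for these 3 genes wild type replicate 2 was the lowest array and bitransgenic replicate 2 the highest. The genotypes did not overlap, with both bitransgenic arrays above, as for 23.9% of all genes. Tyrobp, also called DAP12, had signals of 1737 and 945 in wild type skin against 2098 and 2790 in bitransgenic skin (0.91 ± 0.35, 0.265). Trem2, a lipid-sensing receptor that signals through Tyrobp, stayed dim at 80.9 and 68.4 against 96.2 and 61.0, with overlap and a 95% interval of -0.90 to 0.98.

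Integrins Itgam and Itgb2 form the heterodimer Mac-1, the complement receptor of myeloid cells, and Itgb2 also pairs with other alpha chains on all leukocytes. Itgb2 read 341 and 218 on the wild type arrays against 788 and 1468 on the bitransgenic arrays. With no overlap between genotypes the difference was 3.77-fold (log2 1.92 ± 0.40, adjusted p = 0.0725), which passed the threshold without wild type replicate 1 (2.22, 0.0308). Leaving out bitransgenic replicate 1 or 2 gave 0.12 and 0.313. Itgam was dim, at 43.2 and 61.3 against 133 and 197 (log2 1.40 ± 0.39, adjusted p = 0.139). Its wild type signals lay at about the filter's signal of 57.0, so its fold also depends on the pseudocount.

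C1q, the recognition unit of the classical complement pathway, is built from 3 chains that macrophages of tissues produce. C1qa read 582 and 720 on the wild type arrays against 1253 and 2072 on the bitransgenic arrays (log2 difference 1.29 ± 0.32, adjusted p = 0.112). C1qb read 1118 and 885 against 1662 and 2014 (0.87 ± 0.26, 0.161). C1qc read 841 and 836 against 1108 and 1631 (0.67 ± 0.29, 0.311). In the probe sets that stood for the genes none of the 3 chains overlapped between genotypes, and bitransgenic replicate 2 was the highest array. Both bitransgenic arrays lay above both wild type arrays in all 3, against 23.9% of all genes. Of the 2 further C1qb probe sets, 1 overlapped (0.33 in the fit of all probe sets) and 1 did not (0.89), and both were highest in bitransgenic replicate 1.

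The 6 tested surface markers and scavenger receptors of macrophages all had positive differences, with a median of 0.98. In 5 of the 6 both bitransgenic arrays lay above both wild type arrays, against 23.9% of all genes. Adgre1, which codes for the F4/80 antigen, read 742 and 496 on the wild type arrays against 787 and 865 on the bitransgenic arrays (log2 difference 0.43 ± 0.30, adjusted p = 0.549). Here bitransgenic replicate 1 was barely above wild type replicate 1. Cd68, a glycoprotein of macrophage lysosomes, read 454 and 464 against 649 and 1390 (1.03 ± 0.40, 0.267), so its 2 wild type arrays were nearly equal and its bitransgenic arrays were not. Cd163, the scavenger receptor for haemoglobin, read 1922 and 676 against 1986 and 1595, with overlap (0.63 ± 0.48, 0.585). Mrc1, the mannose receptor, read 2517 and 1597 against 2995 and 4978, without overlap (0.94 ± 0.35, 0.249). Ms4a7, a membrane protein of macrophages, was the most separated of these markers, at 597 and 421 against 1076 and 1318 (1.22 ± 0.30, 0.105). Of the fits with 1 array left out, it passed the threshold without wild type replicate 1 (0.0489), and the other three gave 0.107 to 0.453.

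Msr1, scavenger receptor A, had 4 probe sets, all higher in bitransgenic skin, with log2 differences between 1.05 and 2.17. The one that stood for the gene read 101 and 66.5 against 194 and 182 (adjusted p = 0.219). Marco, a related scavenger receptor of particular macrophage types, was at 35.7 or less on every array in both of its probe sets and passed no filter.

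Among the regulators of the lineage, Csf1r, the receptor for Csf1, read 5564 and 2778 on the wild type arrays against 5348 and 6073 on the bitransgenic arrays. Wild type replicate 1 lay between the 2 bitransgenic arrays, so the log2 difference of 0.53 ± 0.36 (adjusted p = 0.528) rested on wild type replicate 2. Its 3 probe sets gave 0.53, 0.60 and 0.52 in the fit of all probe sets. Its ligand Csf1 read 527 and 194 against 401 and 300.0, with overlap (0.11, 95% interval -1.08 to 1.30), and the mean of its probe sets reversed the sign (-0.011). Spi1, the PU.1 gene, read 203 and 138 against 220 and 470, highest in bitransgenic replicate 2 (0.89 ± 0.45, 0.397). Il34, the second ligand of Csf1r and a product of keratinocytes, read 241 and 195 against 180 and 274 (log2 difference 0.036, 95% interval -0.83 to 0.90).

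Of the 6 lysosomal and secreted proteins, 4 had positive differences, and none of the 6 overlapped between genotypes. Both bitransgenic arrays lay above in 4 and below in 2, against 23.9% and 24.9% of all genes. Lyz2, the lysozyme of myeloid cells, read 4657 and 3460 on the wild type arrays against 8175 and 13098 on the bitransgenic arrays. Both bitransgenic arrays were above both wild type arrays (2.57-fold, log2 1.36 ± 0.31, adjusted p = 0.0905). Ctss, a cysteine protease that prepares antigens, read 3348 and 2159 against 4861 and 7376 (1.15 ± 0.33, 0.141). Mpeg1, a pore-forming protein of phagosomes, read 625 and 374 against 857 and 1132 (1.0 ± 0.34, 0.213). In all 3 the order of the arrays was the same, from wild type replicate 2 through wild type replicate 1 and bitransgenic replicate 1 to bitransgenic replicate 2. Laptm5, a lysosomal membrane protein of blood cells, read 1027 and 447 against 1173 and 1554 (0.98 ± 0.42, 0.321), but its probe sets past the filter disagreed, with log2 differences of 0.43, 0.79, 0.98 and -0.47.

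Gpnmb and Lgals3 were the 2 tested members with a lower mean in bitransgenic skin. Gpnmb, a membrane glycoprotein of macrophages, melanocytes and other cells, read 1060 and 8784 on the wild type arrays against 723 and 944 on the bitransgenic arrays. Its log2 difference of -1.87 ± 0.88 (adjusted p = 0.362) rested on wild type replicate 2. With the other wild type array left out it was -3.39 and passed the threshold (0.00192). Beside it, all 7 tested melanocyte markers, a list added after the values were seen, were highest in wild type replicate 2, where their summed signal was 16450, against 2060.2 in wild type replicate 1 and 2056 and 2331 in bitransgenic skin. Their median log2 difference was -1.37, with 0 called. Among them the pigment enzyme gene Tyrp1 read 369 and 3658 on the wild type arrays against 454 and 577 on the bitransgenic arrays, and Pmel, a structural protein of pigment granules, read 328, 3437, 323 and 319. The part of pigment cells in the Gpnmb value was not tested. Lgals3, or galectin-3, which keratinocytes also make, read 19521 and 19555 against 16919 and 17796 (-0.17, 95% interval -0.71 to 0.37). That interval does not reach a 2-fold change either way.

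Genes of all leukocytes and of their cytoskeleton made up the rest. Coro1a, an actin regulator of blood cells, read 497 and 526 on the wild type arrays against 1086 and 1831 on the bitransgenic arrays, with no overlap (2.70-fold, log2 1.43 ± 0.32, adjusted p = 0.0875). Ptprc, which codes for the leukocyte antigen CD45, read 1437 and 572 against 1320.0 and 1628, with overlap (0.68 ± 0.44, 0.513). Plek, a substrate of protein kinase C, overlapped as well, at 438 and 249 against 417 and 512 (0.46 ± 0.37, 0.601). Its other probe sets gave 1.43 and 0.90. Aif1, or Iba1, read 145 and 74.5 against 181 and 263 (0.96 ± 0.43, 0.334).

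**Figure D3:**
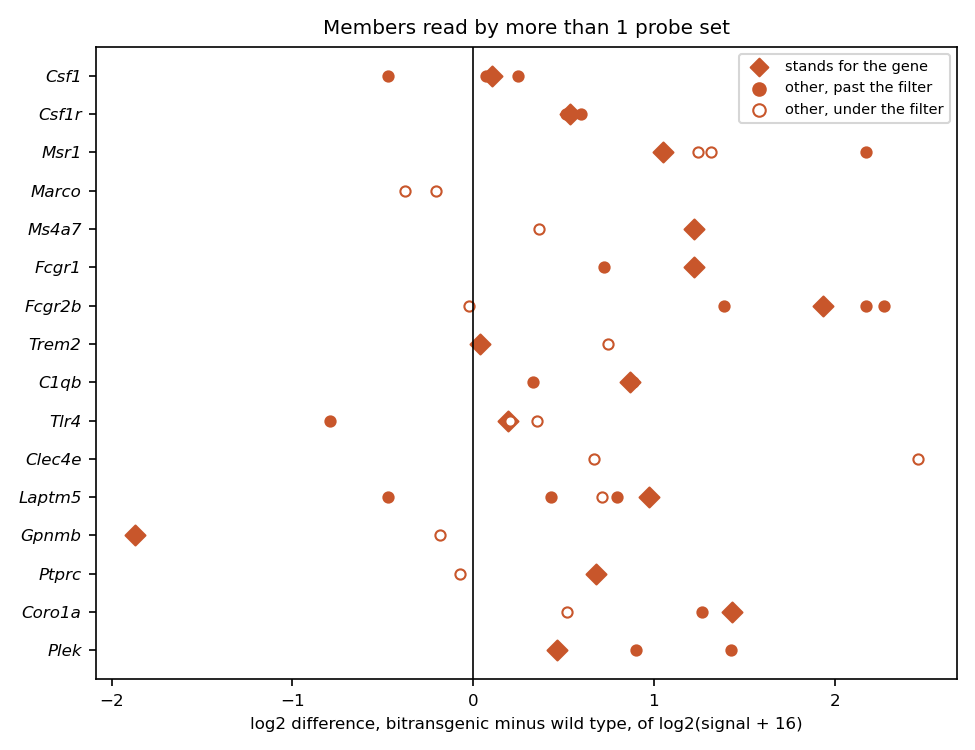
Log2 difference between bitransgenic and wild type skin for each probe set of the 16 members read by more than 1 probe set, from the fit of all probe sets; diamonds stand for the gene in the gene fit and open circles lay under the filter. Csf1, Tlr4 and Laptm5 have probe sets past the filter on both sides of 0, while those of Fcgr2b and Msr1 lie to the right.

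Of the 70 member probe sets, 60 had positive and 10 negative differences. Among the 55 past the filter 50 were positive and 5 negative. In the fit of all 45037 probe sets, limma called 0 of the 70 at an adjusted p under 0.05, with 29 higher and 0 lower at an unadjusted p under 0.05. Over all probe sets 0.0444% were called higher, 0.129% lower, and 4.53% were higher at the unadjusted p.

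The size of the difference depended on which arrays were set against each other. Wild type replicate 2 was the lowest array for 29 of 36 members, against 23.8% of all genes, and bitransgenic replicate 2 the highest for 26, against 25.7%. Over the 36 members, wild type replicate 2 stood against the other wild type array at a median of -0.54. That was larger in size than the median of 0.42 by which bitransgenic replicate 1 exceeded wild type replicate 1. Within replicate number 2 the median was 1.52. Each same-numbered pair set an array with bright Eif2s3y, the Y-linked gene, against 1 where it was dim. Between arrays alike in Eif2s3y, bitransgenic replicate 2 exceeded wild type replicate 1 by a median of 0.84. Likewise bitransgenic replicate 1 exceeded wild type replicate 2 by 1.09. The part of sex in these values was not tested. Bitransgenic replicate 2 exceeded bitransgenic replicate 1 by a median of 0.40. Over all genes the medians of all 6 pairs of arrays lay between -0.029 and 0.076. Members were higher in the bitransgenic array within both replicate numbers in 27 of 36 cases, against 33.9% of all genes. With wild type replicate 1 left out, the members' median difference between genotypes was 1.29, and with wild type replicate 2 left out it was 0.65. Without bitransgenic replicate 1 the median was 1.19, and without bitransgenic replicate 2 it was 0.75.

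**Figure D4:**
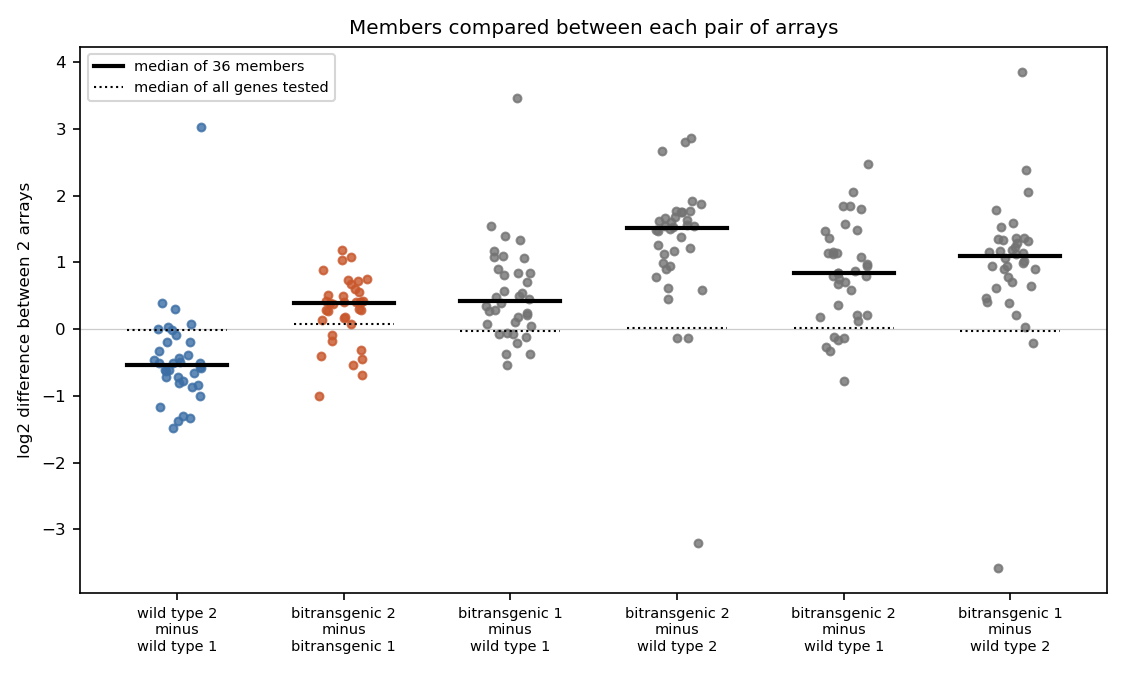
Log2 difference of each of the 36 members between each pair of arrays (points), with the median of the members (thick line) and of all genes tested (dotted line). The members' median is -0.54 between the 2 wild type arrays, 0.40 between the 2 bitransgenic arrays, and 0.42 to 1.52 between genotypes, while the dotted lines stay close to 0.

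Other genes of myeloid cells were read from further lists. Of 5 tested subunits of the phagocyte oxidase, which makes superoxide, 5 had positive differences and 0 passed, with a median of 1.12, 4 of them at an unadjusted p under 0.05. Over all genes, 50.5% had positive differences, 0.75% were called higher and 6.91% were higher at that unadjusted p. Cybb overlapped, at 408 and 132 on the wild type arrays against 632 and 398 on the bitransgenic arrays (adjusted p = 0.414). Rac2, the regulatory GTPase of the oxidase, read 209 and 218 on the wild type arrays against 411 and 627 on the bitransgenic arrays (1.19 ± 0.34, adjusted p = 0.14). Of 38 tested genes listed as other macrophage and monocyte genes, 34 had positive differences and 2 rose, Clec4n and Chil3, with a median of 0.90. Other cells of skin may also express genes of this list, such as Cd52, Lyve1 and Cebpa, and their part was not tested. The 4 genes of the list with negative differences were Mertk, Folr2 (-0.38), Fcna (-0.30) and Cd209f (-0.20). Mertk read 1066 and 813 on the wild type arrays against 328 and 488 on the bitransgenic arrays (-1.18 ± 0.32, adjusted p = 0.13). Of 3 genes under the filter, Siglec1 (-1.73) and Timd4 (-0.34) were lower and Il10ra (1.56) was higher in the fit of all probe sets. Chil3, a chitinase-like protein secreted by macrophages and neutrophils, read 3.1 and 17.1 against 505 and 172 (3.64 ± 0.59, 0.0358), so its wild type signals lay under the filter's signal. It missed the threshold without bitransgenic replicate 1 (0.11), with a pseudocount of 64 (0.0561) and with no filter (0.0597).

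Of 7 genes of the growth factor and recruitment axis, 7 had positive differences (50.5% of all genes), with a median of 1.13, and 1 rose (0.75%). That was Ccl2, the chemokine that draws monocytes out of blood, which read 71.6 and 71.0 on the wild type arrays against 637 and 442 on the bitransgenic arrays (6.27-fold, log2 2.65 ± 0.35, adjusted p = 0.0199). Its adjusted p was 0.129 and 0.0578 when bitransgenic replicate 1 or 2 was left out. Its receptor Ccr2 read 246 and 193 against 217 and 942, high in bitransgenic replicate 2 alone. Csf3r, the receptor for granulocyte colony-stimulating factor, read 31.8 and 17.2 against 133 and 120 (1.84 ± 0.40, 0.0793). Both its wild type signals lay under the filter's signal, the difference was 1.11 with a pseudocount of 64, and the gene is counted in the neutrophil list too. Lysosomal proteases, hydrolases and other lysosomal proteins such as Lamp1 and Lamp2 had 7 positive and 6 negative differences among 13 tested. Their median was 0.027, and 0 passed. Ctsk, an acid protease, read 4798 and 2147 against 1549 and 1436 (-1.10, 0.23). In the other direction, Ctsh read 5732 and 3268 against 8251 and 7486 (0.86, 0.242).

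Markers of other cells of skin were measured beside the members. All 9 tested neutrophil markers had positive differences (50.5% of all genes), with a median of 1.10, and S100a9 rose (0.75% of all genes). S100a9, which keratinocytes under stress also make, read 315 and 707 on the wild type arrays against 2938 and 2996 on the bitransgenic arrays (2.61 ± 0.39, adjusted p = 0.0304), which became 0.119 and 0.0975 when bitransgenic replicate 1 or 2 was left out and 0.0515 with no intensity trend. The neutrophil granule gene Ngp read 90.2 and 96.0 against 312 and 499 (1.92 ± 0.37, 0.0581), while Elane, Ltf, Mmp8, Camp, Cxcr2 and Cd177 lay under the filter. The granule protein gene Ltf was the farthest apart of those 6, at 18.6 and 2.9 against 138 and 136. Summed over 15 measured neutrophil markers, signals were 4772 and 8682 in wild type skin but 13109 and 14000 in bitransgenic skin. Most of it came from S100a8, S100a9 and Il1r2. S100a8 overlapped between genotypes, at 1595 and 6173 on the wild type arrays against 4901 and 5647.5 on the bitransgenic arrays (log2 difference 0.74). It was highest in wild type replicate 2. Il1r2 did not overlap, at 2189.7 and 1332 against 3491 and 3859.7 (1.10). T cell markers had 5 positive and 3 negative differences with a median of 0.19, and mast cell markers 5 and 4 with a median of 0.049, with 0 called in either. Langerhans and dendritic cell markers had 7 positive and 4 negative differences and a median of 0.46, with Itgax at 1.71 (0.153) and H2-Eb1 at -2.36 (0.0599). Unlike H2-Eb1, the related genes H2-Aa (0.96, 0.302), H2-Ab1 (0.91, 0.459) and Cd74 (0.93, 0.316) had positive differences. Of B cell markers only Cd22 could be tested (0.33, 0.765). Dermal fibroblast markers had 0 positive and 9 negative differences and a median of -1.01, with 0 called, and Col1a1 read 24113 and 21767 against 7006 and 10036 (-1.45 ± 0.27, 0.0531). Among 10 epidermal keratinocyte markers, with a median of -0.023, the filaggrin gene Flg rose (2.13, 0.0156), with an adjusted p of 0.116 and 0.054 when bitransgenic replicate 1 or 2 was left out. The part of other cell types in the members' values was not tested.

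**Figure D5:**
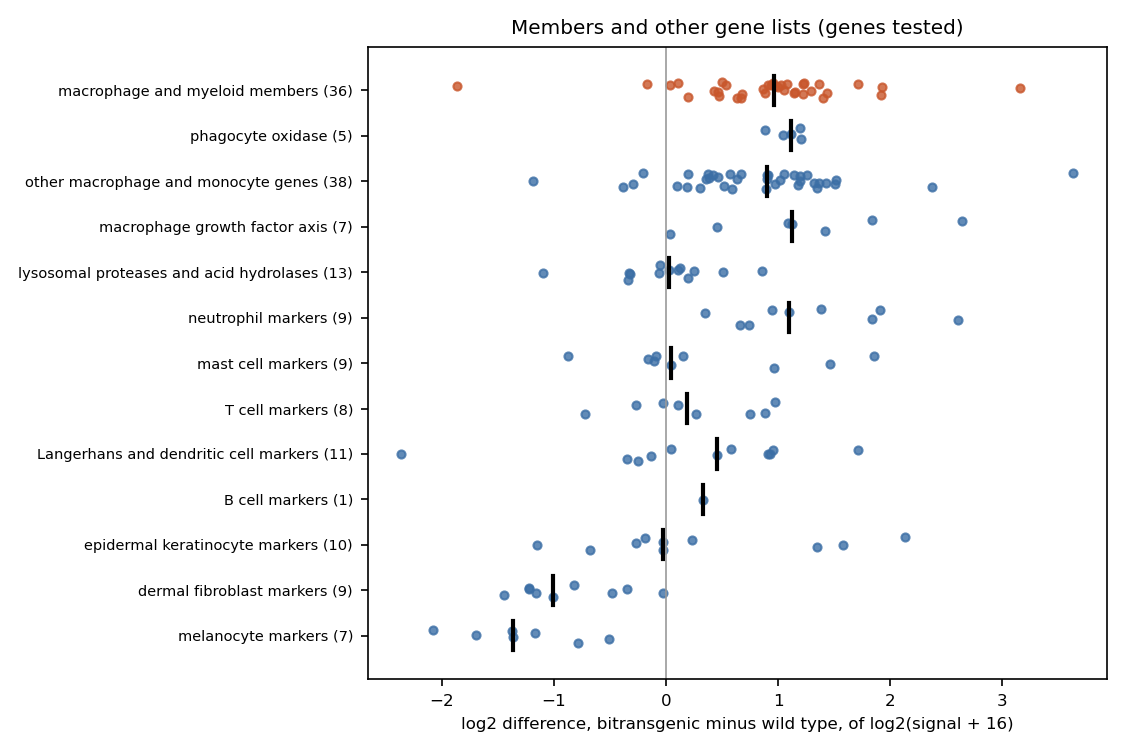
Log2 difference between bitransgenic and wild type skin of each gene tested (points) in the members and in 12 further lists, with the number of genes tested in brackets and the median of each list as a vertical line. Medians of the myeloid and neutrophil lists lie between 0.90 and 1.13, those of lysosomal, mast cell and keratinocyte lists near 0, and that of dermal fibroblast markers at -1.01.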

How the data were processed

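Total RNA of dorsal skin was hybridised to single-colour Affymetrix mouse expression arrays, 2 wild type and 2 bitransgenic. The deposited values are linear intensities (signals), 1 per probe set, which the authors had scaled to a common trimmed mean. MAS5 and affy are named per the submitters' processing notes, with their roles and versions not given there. The table has no detection calls and gives no measure of depth, so the number of arrays limits the precision.

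Signals of 45037 probe sets that were not controls were transformed as log2(signal + 16). Probe sets with a mean at or above the 40th percentile (6.19, or a signal of 57.0) were kept, and the brightest stood for its gene, which gave 13070 genes. The genotypes were compared by limma (version 3.58.1, under R 4.3.3; lmFit, eBayes with an intensity trend, 2 residual and 4.45 prior degrees of freedom), with Benjamini-Hochberg adjustment over all genes and a threshold of 0.05. A second fit took all 45037 probe sets. Folds are powers of 2 of the log2 difference, and intervals are 95% intervals of the fit. The code was tested on simulated data. Low signals make folds depend on the pseudocount.

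Genes were named by the platform annotation: 34945 probe sets had 1 symbol, 932 several and 9160 none, and 34741 matched RefSeq by Entrez identifier. The members and lists were chosen with earlier results of these data known. Values are given per array for called members, the 8 largest differences, lower members, lineage markers and members with discordant probe sets, and were extended to most others. From other lists, called genes and up to 2 genes of smallest p were named. Il34, Ccr2, Ltf, S100a8, Il1r2, Tyrp1, Pmel and the lectin genes beside Clec4n were added after their values were seen. So were Mertk, Folr2, Fcna, Cd209f, Siglec1, Timd4, Il10ra, H2-Aa, H2-Ab1 and Cd74. Alternatives were pseudocounts of 1 and 64, other filters, quantile normalization, equal array medians, other probe set rules, a replicate block, no trend and each array left out. Arrays of a group are biological replicates per the labels.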

Additional observations from a re-analysis of the deposited data

How the results depend on the processing

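Replicate numbers in the labels do not state a pairing, and there were only 2 pairs. Same-numbered arrays were alike in the mean signal of the Bacillus spike-in controls. It was 1528 on the wild type and 1598 on the bitransgenic array of replicate 1, against 328 and 465 for replicate 2. What this likeness reflects was not tested. Deviations of same-numbered arrays correlated at 0.211. With replicate number as a block, 4 members were called higher (C1qa, Clec7a, Clec4d and Coro1a), 645 genes in all, 14 genes of the other lists and 2 member probe sets, against 1, 304, 5 and 0 without it (1.58% of all genes called higher, against 0.75%). Members called higher numbered 0 with no filter, with the 60th percentile as filter, and without probe sets whose identifiers end in _x_at or _s_at (0.286%, 0.833% and 0.707% of all genes), and 2 with quantile normalization or equal array medians (0.812% and 0.888%). With each array left out in turn they ranged from 0 to 8, members called lower from 0 to 1, genes called from 118 to 949 and genes of the other lists from 0 to 18. No filter gave 184 genes. The members' median stayed positive under every setting run, between 0.65 and 1.29. Signs of members reversed for Csf1 (-0.011 with the mean of probe sets, and a range of -0.58 to 0.79 with arrays left out), Tlr4 (-0.30 with the mean of probe sets, and -0.020 to 0.41 with arrays left out) and Laptm5 (-0.47 without suffixed probe sets), and with arrays left out also for Cd163 (-0.11 to 1.38), Trem2 (-0.23 to 0.31) and Ly86 (-0.087 to 1.09). Among named genes of other lists, Cd22 reversed (-0.044 to 0.70 with arrays left out). The causes were not tested.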
